A study of Homo sapiens with 14 samples.

Results

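Splicing of 10 genes of the ATR and ATM checkpoint was compared between HEK293T cells with WT and mutant SF3B1. The genes were ATR, ATRIP, ATM, CHEK1, CHEK2, TOPBP1, RAD17, ETAA1, CLSPN and WEE1. Every event listed under these symbols was taken, whatever its type, if it had a mean of at least 10 junction reads. Of 176 events listed for the 10 genes, 148 passed this minimum, out of 114349 events of 12516 genes in the whole table.

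RNA-Seq was available for 3 WT and 3 mutant (MT) libraries of HEK293T, an established human embryonic kidney line. WT cells carried SF3B1-K700K, a silent change, and MT cells SF3B1-K700E at the endogenous locus, in isogenic lines for which the labels give no treatment. The sources used here do not say whether libraries of a genotype came from separate cultures or clones, so the p-values below measure only the spread between these libraries. DRIP-seq, which maps DNA:RNA hybrids with the S9.6 antibody, was available for Nalm-6, a human leukemic B cell line with the same 2 genotypes, as 8 libraries from DNA left untreated or digested with RNase H (RNH1). For each event the splice table lists 6 MT values, but only 3 MT columns. The columns were used here in their order as MT 1 to MT 3, and whether they hold the 3 MT samples of the labels is unsettled.

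ATR is the apical kinase of the replication checkpoint. ATRIP brings it to RPA-coated single-stranded DNA, RAD17 loads the RAD9A-HUS1-RAD1 clamp, TOPBP1 and ETAA1 activate the kinase, and CLSPN (claspin) presents its main target, the effector kinase CHEK1. ATM responds to double-strand breaks and acts through CHEK2, and WEE1 restrains CDK1 and so holds cells before mitosis. SF3B1 is the U2 snRNP subunit that holds the branch site of the intron, and K700E is known for use of other 3′ splice sites, often upstream of the usual AG, the dinucleotide that ends an intron.

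No event of the checkpoint genes was called different between WT and MT cells. The inclusion level is the share of the longer form among the forms that an event compares, judged from junction reads. For a pair of mutually exclusive exons it is the share of the exon that comes first in the transcript. Of the 148 events, 18 had a level of 1 in every library and could not be tested, which left 130. An event was called at a limma adjusted p under 0.05 (Benjamini-Hochberg over all 83581 events tested) with a difference above 0.1, and 0 of the 130 met this. Over all events 26 were called, or 0.0311%. At an unadjusted limma p under 0.05 there were 3 of 130 (2.31%), 2 of CLSPN and 1 of CHEK1, against 4.47% of all events tested. A quasi-binomial model on the junction counts also called 0 of the 130, against 26 of 79601 over all events in that model. At an unadjusted quasi-binomial p under 0.05 it had 4 of the 130 (3.08%), against 6.02% of all events.

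The differences were small. Their median size was 0.0102 over the 130 events and 0.0137 over all events tested. A difference above 0.1 was seen in 8 of 130 events, or 6.15%, beside 5.8% of all events, without a test. WT and MT libraries did not overlap in 4 events (3.08%, against 5.46% of all events), and 1 of these, in CHEK1, differed by at least 0.05 (0.769%, against 3.17%). The shares with a difference above 0.1 or without overlap were thus near or below those of all events. The level was lower in MT libraries in 79 of the 130 events, higher in 47 and equal in 4. Over all 83581 events tested it was lower in 46123 and higher in 36674. Lower levels outnumbered higher ones in both sets.

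**Figure D1:**
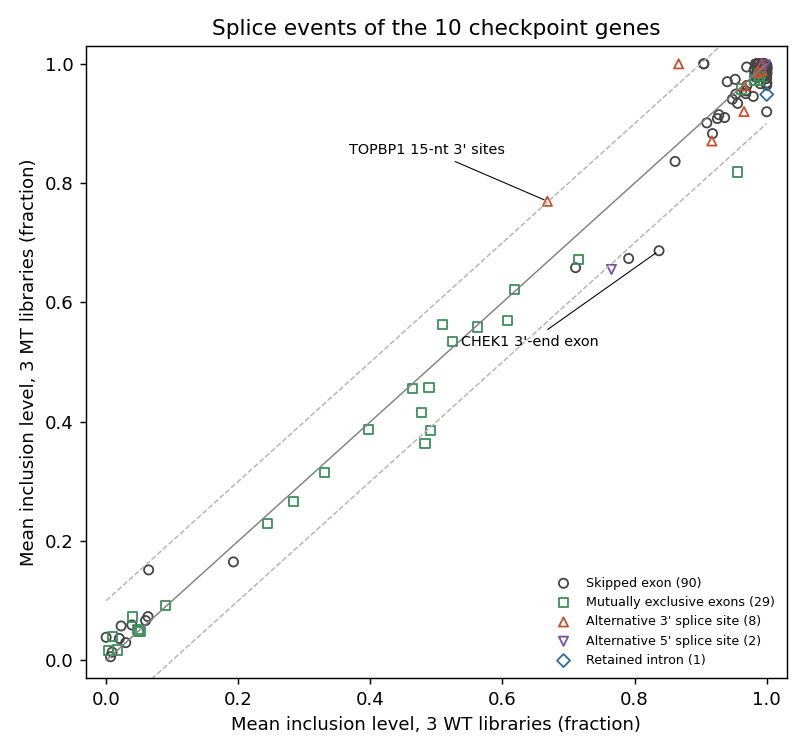
Mean inclusion level (fraction) in the 3 MT libraries against that in the 3 WT libraries, with 1 symbol for each of the 130 tested events of the 10 genes. The solid line marks equal levels and the dashed lines a difference of 0.1, and 8 events lie beyond the dashed lines, among them the CHEK1 exon at the 3′ end below and the TOPBP1 pair of 3′ splice sites above.

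Depth summed over the checkpoint events was similar in all libraries. The 130 events held from 11791 to 13484 junction reads per library, counting a read again for each event it enters, and their median of mean reads was 87.9 per event, against 82.4 over all events. Over all events listed, junction reads ranged from 9671337 in MT 1 to 12602478 in WT 2. Single events could be less even, as ATM exon 5 with 136, 77 and 85 reads in WT against 133, 39 and 86 in MT. Over the 130 events the median SD of the level between libraries was 0.0165 in WT and 0.0199 in MT. The 148 events past the read minimum comprised 108 skipped exons, 29 pairs of mutually exclusive exons, 8 alternative 3′ splice sites, 2 alternative 5′ splice sites and 1 retained intron.

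Most reference exons of the checkpoint genes that had a skipped-exon event were included almost completely in both genotypes. The skipped-exon events covered 73 exons of the MANE Select transcripts (the reference transcript of each gene in GENCODE 44), and the median level of these 88 events was 0.994. Among the 71 of them that varied, 59 had a level of at least 0.9 in every library. The difference was negative in 46 and positive in 24, with a median size of 0.00867. The lowest mean level was 0.6845, for CHEK2 exon 8, and the lowest level in a single library was 0.533. Another 20 skipped-exon events concern exons outside the MANE transcripts, and 7 of these had a mean level below 0.05. Levels between 0.05 and 0.95 were found in 40 of the 130 tested events. In these 40 the median size of the difference was 0.027, against 0.0387 in the 30452 such events of the whole table. A difference above 0.1 was seen in 8 of the 40 (20%), against 15.9% of the 30452, without a test.

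CHEK1 held the event that differed most. It is a 130-nt exon at chr11:125656206-125656335 on the plus strand (GRCh38), inside the 3′ UTR part of MANE exon 13, which is annotated as a separate exon in 1 transcript, a nonsense-mediated decay form. Skipping it joins the stretch before it to an exon further downstream, as in 2 annotated transcripts. A transcript that runs through MANE exon 13 unspliced has neither the inclusion nor the skipping junctions, so the level compares spliced forms only. The event had 56.7 reads on average, against 214 for exon 12. The ends of the exon are shown with the AG before it and the GT after it in capitals.

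CHEK1 exon start, chr11:125656186-125656215: tcaactttggggcatattAGgttgaggcct
CHEK1 exon end, chr11:125656326-125656355: ggatgacagaGTaagaccctacctctaata

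The inclusion levels of this exon were 0.843, 0.860 and 0.808 in WT against 0.591, 0.723 and 0.746 in MT. Every MT library lay below every WT library. The mean was 0.837 ± 0.0265 (SD, n = 3) for WT against 0.687 ± 0.0836 (SD, n = 3) for MT, a difference of −0.150 with a 95% limma interval of −0.304 to −0.0132. After adjustment it was not called (limma adjusted p = 0.856, Benjamini-Hochberg), and the two-sided exact permutation test gave p = 0.1, the smallest that 3 libraries against 3 allow. Counts were low. Inclusion junctions had 43, 74 and 42 reads in WT against 26, 68 and 53 in MT, and the skipping junction 4, 6 and 5 in WT against 9, 13 and 9 in MT. The range of skipping reads in MT thus lay above that in WT. Leaving out any single library gave a difference from −0.180 to −0.102. ACRV1 is annotated on the opposite strand over that downstream exon, and the sources used here do not say whether reads were counted by strand, although the kit was stranded.

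**Figure D2:**
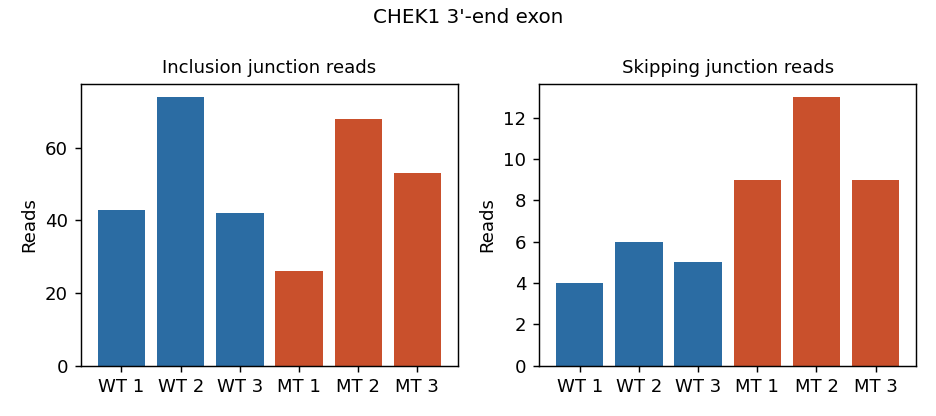
Junction reads of the CHEK1 exon at the 3′ end in each HEK293T library, with reads that include the exon on the left and reads that skip it on the right (y axes in reads, from 0). Skipping reads number 4 to 6 in WT and 9 to 13 in MT libraries.

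The other CHEK1 events moved little. Exon 3, at chr11:125627607-125627830, had the most reads of any checkpoint event, 334 on average. It was partly skipped in every library, with levels of 0.892, 0.805 and 0.887 in WT against 0.933, 0.799 and 0.777 in MT. The groups overlapped, and the difference was −0.025, with a 95% limma interval of −0.100 to 0.0467 (limma adjusted p = 0.859, Benjamini-Hochberg). Exon 8 had levels of 0.991, 0.985 and 0.983 in WT against 0.973, 0.978 and 0.980 in MT, without overlap but with a difference of only −0.00933. Of the 7 CHEK1 events, none was higher in MT, 6 were lower and 1 was equal. Exons 5 and 7 were at 1 in every WT library and so could not be higher in MT.

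CLSPN, the adaptor upstream of CHEK1, had 12 events tested, of which 9 were lower and 3 higher in MT. Exon 2, 109 nt at chr1:35765218-35765326 on the minus strand, was skipped in MT libraries alone. Its levels were 1, 1 and 1 in WT against 0.978, 0.974 and 0.952 in MT. The skipping junction had 0 reads in each WT library, beside 149 to 201 inclusion reads, and 2, 3 and 5 reads in MT, beside 176 to 222. This was the lowest p among the checkpoint events, yet the difference was only −0.032 (95% limma interval −0.0701 to −0.00748) and was not called (limma adjusted p = 0.383, Benjamini-Hochberg, unadjusted limma p = 0.000503, two-sided exact permutation p = 0.1). No annotated transcript of the gene joins exon 1 to exon 3 in this way, and 109 is no multiple of 3. The 3′ splice site before the exon, AG in capitals, is as follows.

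CLSPN exon 2 start, chr1:35765317-35765346, minus strand: agtatattgtcattttctAGgttcacctag

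The other CLSPN event with a low p is a pair of 3′ splice sites 159 nt apart at exon 11. Use of the upstream site was 1, 0.937 and 0.960 in WT against 0.95, 0.897 and 0.913 in MT, and MT 1 lay within the WT range. Reads at the downstream site numbered 0, 8 and 6 in WT against 5, 15 and 15 in MT. The difference was −0.0457, with a 95% limma interval of −0.136 to −0.010 (limma adjusted p = 0.856, Benjamini-Hochberg).

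Alternative 3′ splice sites are the type for which SF3B1-K700E is known, and over the whole table they made up 12 of the 26 called events. The checkpoint genes had 8 such events, and 6 lay in coding exons with sites up to 159 nt apart. Their sequences are shown because the distance and the bases between the sites define the event. In each, capitals mark the stretch between the sites, after the 40 bases that precede the upstream site and before 10 bases of shared exon. In ATM each site starts an exon in only 1 of 53 annotated transcripts. The usual start of that exon may thus be neither, and the bases before the upstream site need not be intronic. All are printed in the direction of transcription from GRCh38.

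TOPBP1, 15 nt, chr3:133652605-133652669, minus strand: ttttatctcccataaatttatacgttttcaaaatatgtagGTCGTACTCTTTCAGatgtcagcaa
RAD17, 21 nt, chr5:69410453-69410523, plus strand: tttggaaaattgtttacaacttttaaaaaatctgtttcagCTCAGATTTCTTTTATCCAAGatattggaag
ATM, 24 nt, chr11:108253791-108253864, plus strand: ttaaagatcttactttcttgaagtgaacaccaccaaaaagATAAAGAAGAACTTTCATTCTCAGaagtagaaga
CHEK2, 33 nt, chr22:28695200-28695282, minus strand: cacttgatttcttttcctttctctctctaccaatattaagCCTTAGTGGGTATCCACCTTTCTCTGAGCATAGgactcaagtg
WEE1, 49 nt, chr11:9586409-9586507, plus strand: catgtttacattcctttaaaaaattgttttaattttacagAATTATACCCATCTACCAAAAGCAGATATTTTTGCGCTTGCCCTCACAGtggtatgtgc
CLSPN, 159 nt, chr1:35749643-35749851, minus strand: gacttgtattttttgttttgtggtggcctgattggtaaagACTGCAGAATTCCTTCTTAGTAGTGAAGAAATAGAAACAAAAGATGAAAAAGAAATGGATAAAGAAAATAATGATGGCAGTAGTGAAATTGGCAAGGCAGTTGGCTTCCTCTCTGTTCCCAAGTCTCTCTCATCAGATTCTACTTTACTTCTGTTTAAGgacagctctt

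Every one of these 12 sites follows an AG. The 20 bases before the upstream AG held from 7 pyrimidines (ATM) to 15 (CHEK2), and those before the downstream AG from 10 (ATM) to 16 (CLSPN). In 5 of the 6 events the added length is a multiple of 3, the exception being WEE1.

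TOPBP1, the main activator of ATR, was the only checkpoint gene that used both sites of such a pair to a large extent. The upstream site at exon 8 had levels of 0.563, 0.771 and 0.670 in WT against 0.723, 0.872 and 0.714 in MT. The groups overlapped, since WT 2 lay above MT 1 and MT 3. The mean was 0.668 ± 0.104 (SD, n = 3) for WT against 0.770 ± 0.0887 (SD, n = 3) for MT, a difference of 0.102, with a 95% limma interval of −0.0158 to 0.205 (limma adjusted p = 0.856, Benjamini-Hochberg). Upstream-form reads numbered 58, 70 and 89 in WT against 123, 86 and 69 in MT, against 39, 18 and 38 and 41, 11 and 24 at the downstream site. Leaving out each library in turn gave differences from 0.0492 to 0.153.

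Of the sites compared, the upstream one prevailed in the other 5 pairs. WEE1 has no other event that was tested, and its levels were 1, 0.988 and 0.969 in WT against 0.984, 0.973 and 1 in MT, a difference of 0.000 (95% limma interval −0.0397 to 0.0143). CHEK2 had levels from 0.964 to 0.970 in WT and from 0.951 to 0.984 in MT at exon 12, and RAD17 was below 1 in WT 3 alone, at 0.978. The ATM pair at exon 13 had only 10.8 reads on average, with levels from 0.828 to 1 in WT and from 0.706 to 1 in MT.

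**Figure D3:**
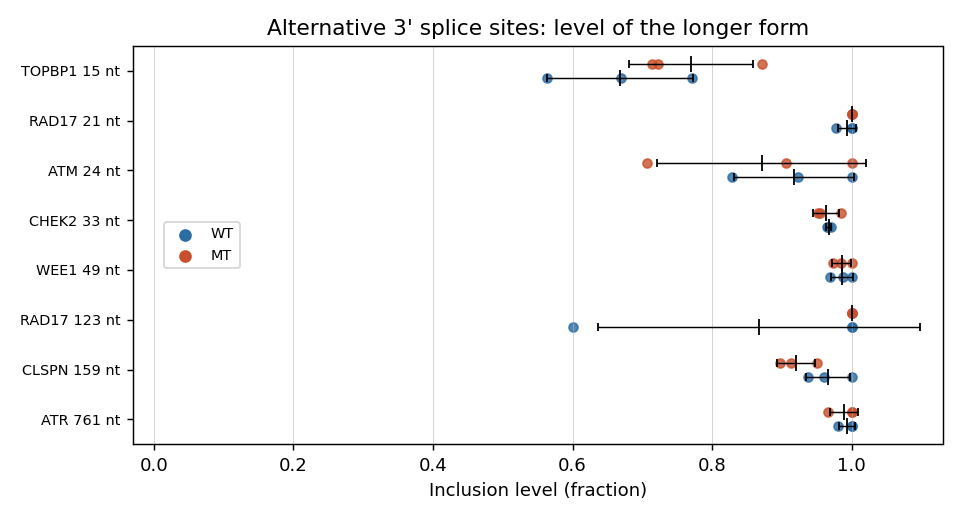
Level of the longer form (fraction, x axis) for the 8 alternative 3′ splice site events of the checkpoint genes, ordered by the distance between the sites. Points are libraries, ticks with bars are the mean and SD of 3 libraries, and only TOPBP1 has every library below 0.9.

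No event of ATR or its partner ATRIP was called. ATR had 16 events tested, and 12 MANE exons seen by skipped-exon events had a median level of 0.992. The single ATR difference above 0.1 is the share of exon 27 against the neighbouring exon 28 as an exclusive pair. Its levels were 0.594, 0.400 and 0.478 in WT against 0.423, 0.33 and 0.400 in MT, so the groups overlapped. The difference was −0.105, with a 95% limma interval of −0.249 to 0.0484 (limma adjusted p = 0.856, Benjamini-Hochberg). The pair with the most reads, the share of exon 32 against exon 33, had 0.677, 0.762 and 0.707 in WT against 0.594, 0.790 and 0.632 in MT, a difference of −0.0433. Of the 29 exclusive pairs in the 10 genes, 23 join 2 MANE exons and 19 of those are neighbours, which the reference transcript carries together, so a level near the middle compares the junction reads of 2 adjacent exons.

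ATRIP had 8 events tested, 7 lower in MT and 1 equal. The tested skipped-exon events of exons 2 and 3 were at 1 in every library but MT 2, which had 1 skipping read in each. From a WT level of 1 they could only be lower. Its exon 5, at chr3:48457259-48457416, had levels of 0.963, 0.963 and 0.942 in WT against 0.929, 1 and 0.872 in MT, with a difference of −0.0223 (95% limma interval −0.080 to 0.0396). Exon 7 had 0.942, 0.905 and 0.907 in WT against 0.878, 0.953 and 0.818 in MT. In both exons MT 2 lay above the WT range and MT 1 and MT 3 below it.

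RAD17 had 22 events tested, 11 higher and 10 lower in MT. The share of its exon 16 against exon 17 as an exclusive pair was 0.701, 0.523 and 0.600 in WT against 0.654, 0.488 and 0.569 in MT, a difference of −0.0377 (95% limma interval −0.171 to 0.0896). Each of the 2 RAD17 differences above 0.1 rested on few reads. The 3′ splice site pair at exon 4, outside the coding sequence, was at 1 in every library but WT 2, which had 0.6 from 6 and 2 reads. The share of exon 2 against exon 3 was 0.867, 1 and 1 in WT against 0.789, 1 and 0.667 in MT, at 10.5 reads on average. The only retained intron of the checkpoint genes, 102 nt within RAD17 exon 4, had a level of 1 in all libraries but MT 3, at 0.846 through a single spliced read.

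ETAA1, the activator that acts apart from TOPBP1, had 1 event. Its exon 3, 77 nt at chr2:67399550-67399626, was included at 1 in every library but MT 1, at 0.926 from 2 skipping reads beside 46 inclusion reads. TOPBP1 exons were the most uniform. Of its 15 events that passed the read minimum, 5 were at 1 in all libraries, and its 11 MANE exons seen had a lowest mean level of 0.996. The share of TOPBP1 exon 20 against exon 22 as an exclusive pair was 0.642, 0.659 and 0.553 in WT against 0.607, 0.627 and 0.633 in MT, a difference of 0.00433 (95% limma interval −0.0806 to 0.0847).

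ATM had the most events, 41 past the read minimum and 36 tested, 15 higher and 21 lower in MT. The skipped-exon events of ATM at intermediate levels all concern exons outside the MANE transcript. An 88-nt noncoding exon at chr11:108224784-108224871 had levels of 0.192, 0.137 and 0.249 in WT against 0.181, 0.204 and 0.110 in MT for its best covered pair of neighbours. With another pair of neighbours the same exon had 0.830, 0.804 and 0.739 in WT against 0.878, 0.536 and 0.607 in MT, a difference of −0.117 at 13.1 reads. In the coding part, the share of exon 31 against exon 32 was 0.620, 0.305 and 0.523 in WT against 0.477, 0.200 and 0.414 in MT. That difference of −0.119 was within the spread of the libraries (95% limma interval −0.294 to 0.0691, limma adjusted p = 0.856, Benjamini-Hochberg). For the pair with the most reads, the share of exon 52 against exon 53 was 0.549, 0.615 and 0.523 in WT against 0.587, 0.541 and 0.548 in MT, a difference of −0.00367.

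CHEK2, the effector kinase of ATM, held the least included MANE exon of the 10 genes. Exon 8, 62 nt at chr22:28703505-28703566, had levels of 0.902, 0.533 and 0.697 in WT against 0.779, 0.612 and 0.584 in MT. The spread within a genotype exceeded the difference of −0.0523 (95% limma interval −0.274 to 0.118). The share of exon 3 against exon 5, the exclusive pair with the most reads, was 0.444, 0.515 and 0.568 in WT against 0.472, 0.549 and 0.668 in MT, a difference of 0.054 (95% limma interval −0.0525 to 0.159). A 114-nt exon outside the MANE transcript did not overlap between groups, with 0.009, 0.010 and 0.008 in WT against 0.011, 0.013 and 0.017 in MT. It had 1 inclusion read in every library, so these levels differ only by the number of skipping reads. A 5′ splice site of an exon outside the MANE transcript differed by −0.110, at 12.2 reads and with levels from 0.491 to 1 in WT and from 0.458 to 0.765 in MT.

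**Figure D4:**
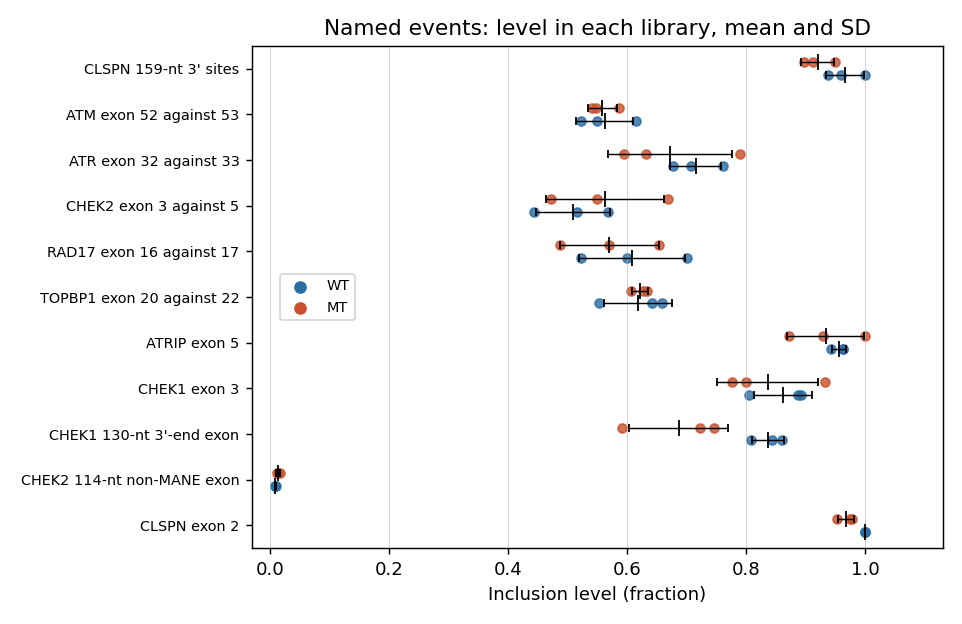
Inclusion level (fraction, x axis) in each HEK293T library for 11 events of the checkpoint genes, chosen for the largest difference without overlap or the most reads at an intermediate level in each gene. Points are libraries, ticks with bars are the mean and SD of 3 libraries, and the CHEK1 exon at the 3′ end shows the widest gap between WT (0.808 to 0.860) and MT (0.591 to 0.746).

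The other genes of the pathway gave a similar count. A list of 48 genes of clamp loading, fork protection, break sensing, p53 control and the cell cycle had events tested in 47, H2AX having none in the table. Of their 553 events, 0 were called in either direction by limma. At an unadjusted limma p under 0.05 there were 30 (5.42%), against 4.47% of all events tested. The quasi-binomial model gave a result for 513 of the 553 and called 0, with 30 at an unadjusted p under 0.05 (5.85%, against 6.02% of all events in that model). Without overlap and with a difference of at least 0.05 there were 13 (2.35%, against 3.17% of all events), and 25 (4.52%) differed by more than 0.1. Their median size of difference was 0.009.

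MDM4, an inhibitor of p53, had the lowest adjusted p of the list. Its exon 6, 68 nt at chr1:204537430-204537497, is the exon whose skipping gives the short form MDM4-S. Levels were 0.614, 0.678 and 0.673 in WT against 0.519, 0.277 and 0.337 in MT, every MT library lying below every WT library. The difference was −0.277, with a 95% limma interval of −0.396 to −0.156 (limma adjusted p = 0.162, Benjamini-Hochberg, called only with robust empirical Bayes, adjusted p = 0.00642). Another 2 of the 5 largest differences without overlap were further MDM4 events, −0.250 for a shorter form of the same exon, whose skipping reads are the same, and −0.238 for the share of exon 4 against exon 5 as an exclusive pair. The remaining 2 were exon 9 of CCNE1 (cyclin E1), at −0.221 (limma adjusted p = 0.842, Benjamini-Hochberg), and 3′ splice sites 32 nt apart at exon 5 of RAD9A, a subunit of the clamp. RAD9A levels were 0.969, 0.928 and 0.927 in WT against 0.844, 0.652 and 0.803 in MT, which differed by −0.175 (adjusted p of limma = 0.840, Benjamini-Hochberg).

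RHNO1, which binds the clamp and TOPBP1 in ATR activation, had an event whose deposited mean reads fell just under the minimum. That event was called when no minimum was set. It was singled out after its values were seen. The event compares 3′ splice sites at exon 2, and the site in question lies 20 nt upstream of the MANE start of the exon, before the start codon. Both AGs are in capitals.

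RHNO1, chr12:2885259-2885288, plus strand: ccAGcttttgtttcttctctacAGgcatgg

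Reads that spliced to the site 20 nt upstream numbered 0, 0 and 0 in WT against 8, 11 and 6 in MT. The MANE site had 49, 46 and 41 reads in WT against 37, 48 and 45 in MT, so both genotypes used it at like depth. Against a site still further upstream, with 10, 1 and 7 reads in WT against 5, 7 and 6 in MT, the level of the longer form was 1, 1 and 1 in WT against 0.238, 0.241 and 0.33 in MT. The difference was −0.729 with a 95% limma interval of −0.973 to −0.361 (adjusted p of limma = 0.0458, Benjamini-Hochberg). The deposited mean of 8.67 reads includes the MT values without a column. Both forms together had 10, 1 and 7 reads in WT and 13, 18 and 12 in the MT columns. WT 2 rested on a single read.

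DRIP peaks over the same genes were counted in Nalm-6 cells, as another readout in another cell line. The untreated WT libraries had 48 and 44 peaks over the 10 gene bodies and the untreated MT libraries 75 and 77. RNH1-treated libraries had 6 and 21 in WT and 48 and 49 in MT. MT libraries held more peaks in total, 254170 and 296533 against 123720 and 131096 in WT among untreated libraries. The depth in reads is not in the peak lists. Per 100000 peaks of a library, the checkpoint genes had 38.8 and 33.6 in WT and 29.5 and 26 in MT. The log2 ratio of MT to WT was −0.38 (two-sided exact permutation test, p = 0.33, which is the minimum for 2 libraries against 2). Among all untreated peaks the share was thus lower in MT libraries and the count higher. After removal of untreated peaks overlapping those of the matching RNH1 library, 43 and 31 remained in WT against 39 and 35 in MT. The mean was 37 in both genotypes (two-sided exact permutation test, p = 1), and their share kept the direction at a log2 ratio of −0.53. The equal means rest on unequal removal, since RNH1 libraries held 34952 and 77550 peaks in WT against 201804 and 198837 in MT. In the whole libraries 101372 and 86247 peaks remained in WT against 124689 and 151753 in MT. The count among peaks with a fold enrichment of at least 4 was 20 and 26 in WT against 48 and 46 in MT, and there the log2 ratio of shares was 0.0384.

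By gene, the longest had the most peaks. ATM had 10 and 11 in untreated WT and 17 and 17 in untreated MT libraries, and ATR had 12 and 8 and 17 and 16. RAD17 had 0 and 0 in WT against 6 and 4 in MT, where its highest fold enrichment was 4.43 and 4.49. These counts are not scaled to the total peaks of a library, which were higher in MT. After RNH1 treatment RAD17 had 0 and 0 in WT and 1 and 0 in MT, and 5 and 4 of its untreated MT peaks shared no base with an RNH1 peak. WEE1 had 3 and 3 in WT and 2 and 2 in MT, and was the only gene with more peaks in both WT libraries than in both MT libraries.

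**Figure D5:**
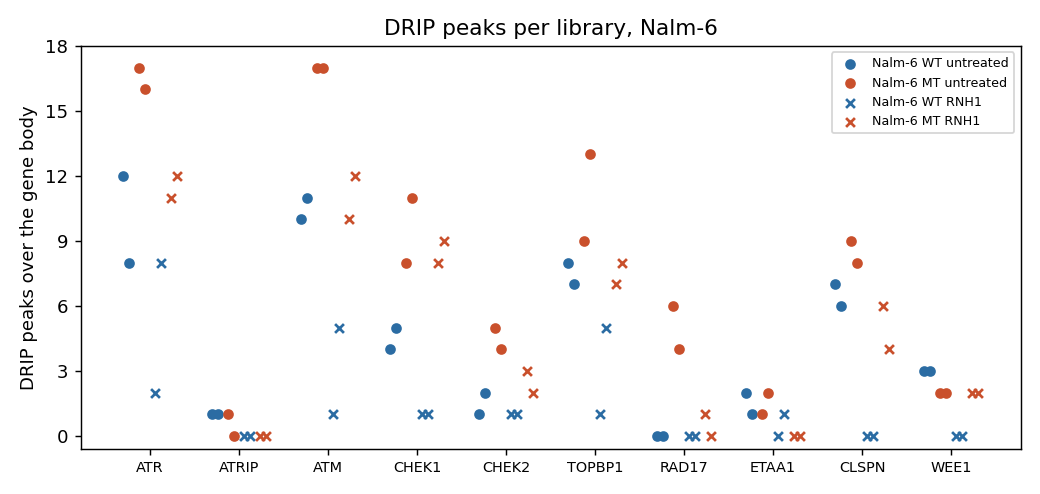
Number of DRIP peaks over each gene body (y axis) in every Nalm-6 library, with circles for untreated and crosses for RNH1-treated DNA, WT in blue and MT in orange. RAD17 has no peak in untreated WT libraries and 6 and 4 in untreated MT libraries, whereas WEE1 has 3 in each untreated WT and 2 in each untreated MT library. Counts are not scaled to the total peaks of a library, which were higher in MT.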

How the data were processed

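RNA-Seq of HEK293T cells (3 WT, 3 MT) and DRIP-seq of Nalm-6 cells (8 libraries) were used. Per the labels, RNA libraries were stranded, and submitters' processing notes name STAR, StringTie, BWA and GRCh38. Methods name the rMATS model. The authors deposited, for each splice event, the inclusion level of each library as a fraction with 3 decimals, junction counts, and their own p-values and adjusted p-values, which were not used. Another 3 MT values per event have no column and were not used, but enter the deposited mean reads of MT. The 6th MT count was restored from the authors' mean in 22347 lists, and 99.9% of levels could be recomputed from counts within 0.0015. The authors deposited DRIP-seq peaks of each library, called by MACS2 with a fold enrichment (a ratio over local background). The deposited −log10 p and q values and scores were not used.

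Levels entered limma (version 3.58.1, R 4.3.3) after an arcsine square-root transform, with a variance trend on log mean reads, a minimum of 10 mean reads and Benjamini-Hochberg adjustment over all events. In exclusive pairs the inclusion counts equalled those of a skipped-exon event of the first listed exon in 8 of 18 pairs on the plus strand, and of the second listed in 4 of 11 on the minus strand, never the reverse, so levels were read in the order of the transcript. Intervals were transformed back at the WT mean, so they are not centred on the difference. The fit was tested on simulated data in which the changes were larger than any checkpoint difference. That test therefore does not show whether differences of the size reported here would be called. Exons follow GENCODE 44, and sequences were read from GRCh38. Peaks on chromosomes 1 to 22, X and Y that overlapped a gene body were counted. Named events were each gene's largest difference without overlap and its event with the most reads at a level of 0.05 to 0.95, plus events added for their type or size. The genes, lists and rules were chosen with earlier results of these data known.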

Additional observations from a re-analysis of the deposited data

How the results depend on the processing

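No checkpoint event was called under any of the 12 alternatives run for that count (logit transform, 20 or no minimum reads, no variance trend, robust empirical Bayes, each of 6 libraries left out, quasi-binomial model) or with a size cut of 0.05. The lowest adjusted p of the 11 named events over these was 0.163, for CLSPN exon 2. Over all events, 26 were called, 3 with a logit transform, 0 without the variance trend (3200 at an unadjusted limma p under 0.05), 63 with robust empirical Bayes and 3 to 13 with a library left out. The pathway list had 1 call without a read minimum (RHNO1) and 1 with robust empirical Bayes (MDM4). Checkpoint events without overlap numbered 1 at a difference of at least 0.05 and 4 without a minimum difference. With a library left out, which makes overlap less likely by construction, the 1 became 2 without WT 1, WT 3 or MT 3, 7 without WT 2 or MT 2 and 8 without MT 1. The share was then 1.59% to 6.50% of checkpoint events, below that of all events in every case (5.83% to 8.42%). Of 132 values of named events, 9 changed sign, each with a library left out and none of them called. The range was −0.0233 to 0.0227 for ATM exon 52 against 53, −0.0555 to 0.0085 for ATRIP exon 5, −0.0733 to 0.00467 for CHEK1 exon 3, −0.0802 to 0.00883 for RAD17 exon 16 against 17, and −0.0282 to 0.0248 for TOPBP1 exon 20 against 22. The DRIP log2 ratio of shares was −0.53 after RNH1 subtraction, from −0.48 to −0.28 with a library left out, and 0.0384 at a fold enrichment of at least 4, and the cause was not tested. No paired analysis was possible because the MT columns cannot be tied to the replicate numbers of the labels, and the DRIP-seq peaks come from no fitted model. The call requires a difference above 0.1, so smaller differences could not be called whatever the depth, a median of 87.9 reads per event. CLSPN exon 2 fell short on size and also on p (lowest limma adjusted p = 0.163, Benjamini-Hochberg, with robust empirical Bayes).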
